A study of Mus musculus with 7 samples.

Results

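Late culture of HL-1 cells, taken as days 3 and 4, was compared with early culture, taken as days 1 and 2. The late group held 4 of the 7 libraries of the series and the early group the other 3. HL-1 is an immortalised mouse line derived from atrial cardiomyocytes, and the study grew it from low density to a culture of beating cells. Small RNA was sequenced as short reads, here called tags. Days 1, 3 and 4 had 2 libraries each and day 2 had 1. The replicate number marks an independent repeat of the time course. The only day 2 library came from time course 2, which thus has 4 libraries against 3 from the other. All libraries came from the same untreated cell line, and day in culture was the only condition that the labels gave. Anything else that changes with days since seeding, such as cell density, cannot be told apart from day.

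A miRNA is cut from the stem of a hairpin RNA, first by Drosha and then by Dicer, and 1 strand is usually kept in the silencing complex while the other (miR*) is lost. Cutting at a neighbouring position gives isomiRs. A 5′ isomiR has a shifted seed, the bases that pair with target mRNAs, whereas a 3′ isomiR keeps the seed and differs in its tail, which can also be trimmed or extended after cutting. In heart muscle miR-1, miR-133a, miR-133b and the miR-208 family are the well-known members, and miR-208a lies in an intron of the gene for the α-myosin heavy chain.

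The tags that carry the comparison are shown first, as the most frequent tag of each miRNA without a mismatch, 5′ to 3′, written in DNA letters with the seed (bases 2 to 8) in capitals. The first 5 belong to the miRNAs whose level passed the test of late against early culture.
miR-210*: aGCCACTGcccaccgcacactg
miR-211*: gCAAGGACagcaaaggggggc
miR-337-5p: gAACGGCGtcatgcaggagtt
miR-504*: aGGGAGAGcagggcagggtttc
miR-3470b*: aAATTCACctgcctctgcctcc

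These 5 tags had different seeds. The next 4 are tags from the other strands of let-7 family hairpins, shown because these strands had lower levels in each late library than in any early library. let-7f-1* holds the tags of 2 hairpin copies with different seeds, so 1 tag of each is given (Mirlet7f-1 and Mirlet7f-2).
let-7b*: cTATACAAcctactgccttccc
let-7f-1*, Mirlet7f-1: cTATACAAtctattgccttccc
let-7f-1*, Mirlet7f-2: cTATACAGtctactgtctttcc
miR-98*: cTATACAActtactactttcct

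The last set shows the tails of miR-208a-5p, the miRNA with the smallest p in the test of 3′ ends. The first tag ends at the reference end, the second is 1 base shorter and the third 2 bases shorter.
miR-208a-5p, reference end: gAGCTTTTggcccgggttatac
miR-208a-5p, 1 base shorter: gAGCTTTTggcccgggttata
miR-208a-5p, 2 bases shorter: gAGCTTTTggcccgggttat

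Libraries held between 4945093 and 6899411 tags on miRNA hairpins. Levels are given as counts per 1e6 tags (CPM) after TMM scaling, a step that brings the bulk of miRNAs to the same level in every library. Tags were found for 1071 miRNAs, and 512 had enough to be tested with edgeR's quasi-likelihood test, with the time course as a block. A change was called at a Benjamini-Hochberg adjusted p under 0.05. The muscle list (7 hairpins) made up 9.60% to 11.1% of the tags of early libraries and 9.72% to 11.6% of late ones. Markers of the other cell types listed next were rare, and smooth muscle was not among the types listed. The endothelial hairpin held 0.0484% to 0.0702% of early and 0.0614% to 0.0926% of late tags, with miR-126-3p at 279 ± 63.0 CPM (SD, n = 3) and 509 ± 135 CPM (SD, n = 4), overlapping groups and a log2 fold change of 0.83 ± 0.27 (edgeR adjusted p = 0.151). The hairpins of neurons (3), blood (5), fibroblasts (3), epithelium (6), embryonic stem cells (11) and hepatocytes (1) each summed to at most 0.00908% in any library. None of these hairpins was at 0 in all libraries, and whether such traces take part in any difference was not tested. In bulk RNA, fewer cells of a type and less of a miRNA per cell cannot be told apart.

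Relative to the bulk of miRNAs, which TMM scaling holds at the same level, most miRNAs differed little between late and early culture. A rise or fall shared by most miRNAs would not show in these values. From qPCR of a set of miRNAs against small nucleolar RNAs, the paper infers a global rise as the cells reached confluency. From its sequencing it also scored some miRNAs, among them miR-211* and miR-92a, as lower at day 4 than at day 1. In its qPCR, the candidates for such a fall that were tested decreased marginally. Of 512 miRNAs, 1 rose (0.195%) and 4 fell (0.781%). The median absolute log2 fold change was 0.30, and 12 miRNAs lay above 1 and 20 below -1 on the log2 scale. At an unadjusted p under 0.05 there were 94, of which 50 were higher and 44 lower in late culture. All late libraries lay above all early ones for 32 miRNAs (6.25%) and below them for 40 (7.81%). These counts are of TMM-scaled levels. TMM factors, which divide the levels, were 1.06 to 1.13 in early and 0.906 to 1.01 in late libraries. Some separations towards higher late levels are thus absent without this scaling.

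**Figure D1:**
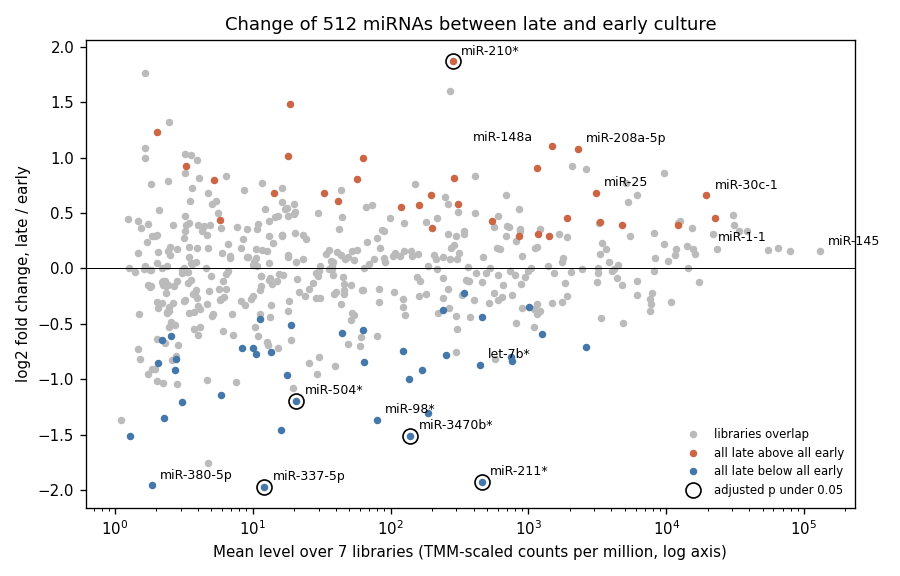
Log2 fold change of late over early culture (y) against the mean level over the 7 libraries in TMM-scaled CPM (x, log axis) for each of 512 miRNAs. Colours mark miRNAs whose 4 late libraries all lie above or below the 3 early ones, and rings mark the 5 with an adjusted p under 0.05, which have levels below those of the abundant muscle miRNAs near the right edge.

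The miRNA that rose was miR-210*, the less abundant strand of the hairpin of miR-210, which is known as the miRNA induced by low oxygen. Its level was 93.2 and 109.7 CPM at day 1 in time courses 1 and 2 and 132 CPM at day 2. It was 531 and 264 CPM at day 3 and 369 and 476 CPM at day 4. Every late library was above every early one, with means of 112 ± 19.6 CPM (SD, n = 3) and 409.9 ± 118 CPM (SD, n = 4). The log2 fold change was 1.87 ± 0.30 (SE; edgeR adjusted p = 0.0178), with 2.26 in time course 1 and 1.61 in time course 2.

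The major strand, miR-210, showed a wide spread between time courses. It had 9597 CPM at day 1 of time course 1 and 3993 CPM at day 1 of time course 2, then 3029 CPM at day 2. Late levels were 16606 and 21795 CPM in time course 1 and 4519 and 7425 CPM in time course 2, so that the groups overlapped although late was higher within each time course (log2 1.00 and 0.77). The fitted change was 0.86 ± 0.21 (adjusted p = 0.0808). The hairpin, Mir210, lies at chr7:141221384-141221493 on the minus strand (GRCm38) and within no other annotated gene of GENCODE.

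miR-211* fell most clearly. The miR-211 hairpin sits in an intron of Trpm1, a cation channel gene, on the same strand (chr7:64205806-64205911, plus strand), and is best known from melanocytes. Levels of miR-211* were 759 and 1012 CPM at day 1 and 579 CPM at day 2, against 227 and 161 CPM at day 3 and 263 and 206 CPM at day 4. The lowest early library was above the highest late one. The log2 fold change was -1.92 ± 0.26 (adjusted p = 0.00788), and -1.63 and -2.11 within time courses 1 and 2. The paper had already scored miR-211* as lower at day 4 than at day 1, by a fold limit in both replicates of this series.

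miR-337-5p, encoded at chr12:109585789-109585885 on the plus strand in the imprinted Dlk1-Dio3 region, was a rarer miRNA that fell. It had 19.8 and 30.01 CPM at day 1 and 13.4 CPM at day 2. In late culture it had 5.79 and 6.85 CPM at day 3 and 5.17 and 3.65 CPM at day 4. These values stand for 76 to 197 tags in early and 23 to 40 tags in late libraries. The log2 fold change was -1.97 ± 0.34 (adjusted p = 0.0213). Its most frequent tag began 3 bases before the RefSeq start, at the edge of the window of accepted starts.

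miR-504*, from an intron of Fgf13 (chrX:59097658-59097736, minus strand), fell from 29.8 ± 6.13 CPM (SD, n = 3) to 13.8 ± 3.20 CPM (SD, n = 4). Early libraries had 33.3 and 33.5 CPM at day 1 and 22.8 CPM at day 2, and late ones 17.2, 10.1, 15.7 and 12.4 CPM, with no overlap. The log2 fold change was -1.20 ± 0.23 (adjusted p = 0.0385).

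miR-3470b* had 138 and 340 CPM at day 1 and 209.5 CPM at day 2. Late levels were 47.5 and 58.4 CPM at day 3 and 62.4 and 119 CPM at day 4, again with no overlap, and the log2 fold change was -1.51 ± 0.30 (adjusted p = 0.0391). The annotated hairpin is at chr16:44013852-44013977, within an intron of Gramd1c on the opposite strand. miR-3470b is known to overlap a B1 element, a short repeat with many copies in the mouse genome, so the locus of origin of these tags is uncertain.

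The number of calls changed when single libraries were left out. Each such fit has fewer libraries, so lower power cannot be told apart from dependence on the library left out. The day 1 library of time course 1 is its only early one. Without it, the blocked fit compares late with early culture within time course 2 only. Without the day 1 or the day 3 library of time course 1, or without the day 4 library of time course 2, 0 of the 5 calls remained, with 52 to 64 miRNAs at an unadjusted p under 0.05. Without the day 1 library of time course 2, 1 remained (miR-211*), and without the day 2 library all 5 were among 11 calls. The direction of all 5 was the same in each of these fits. In the fit without the block, 3 calls were made (miR-210*, miR-211* and miR-337-5p).

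**Figure D2:**
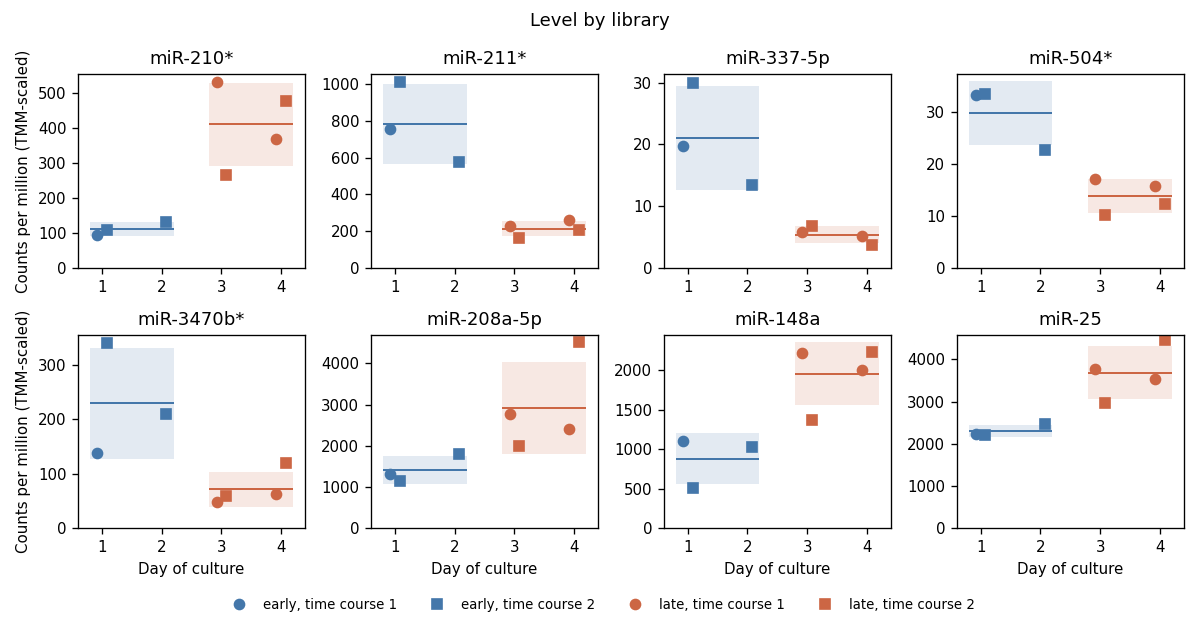
Level in TMM-scaled CPM (y) by day of culture (x) for the 5 miRNAs that passed the test and for miR-208a-5p, miR-148a and miR-25, which did not. Points are libraries (circles for time course 1, squares for time course 2). Lines are group means and bands 1 SD, with n = 3 early and n = 4 late libraries. On this scale, the late points of each of the 8 panels lie wholly above or wholly below the early ones. For miR-208a-5p the groups overlap without TMM scaling.

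The other miRNAs with the smallest p among those higher in late culture did not pass the threshold. miR-208a-5p, from the hairpin in an intron of Myh6 (chr14:54949060-54949142, minus strand), had 1307 and 1144 CPM at day 1 and 1797 CPM at day 2. It had 2767 and 1993 CPM at day 3 and 2401 and 4522 CPM at day 4, with no overlap on the TMM scale (log2 1.081 ± 0.29, adjusted p = 0.0914). As plain shares of the tags tested, the groups of miR-208a-5p overlapped. Day 2 had 10183 of 5034550 tags, and day 3 of time course 2 had 11629 of 5761290. miR-148a, known to act on DNA methyltransferase mRNA, averaged 881 ± 320.4 CPM (SD, n = 3) in early and 1954 ± 400.5 CPM (SD, n = 4) in late libraries (log2 1.11 ± 0.27, adjusted p = 0.0808).

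miR-25, from the miR-106b-25 cluster in the cell cycle gene Mcm7 (chr5:138165321-138165404, minus strand), averaged 2309 ± 143 CPM (SD, n = 3) against 3688 ± 619.6 CPM (SD, n = 4) (log2 0.68 ± 0.19, adjusted p = 0.101). Its neighbours in the same transcript, miR-93 and miR-106b, had log2 values of 0.06 and -0.28. miR-30c-1 had 13597 to 16063 CPM in early and 17216 to 27834 CPM in late libraries (log2 0.66 ± 0.16, adjusted p = 0.0808). Its groups did not overlap on the TMM scale but did as plain shares of the tags tested. Day 2 had 91007 of 5034550 tags, and day 3 of time course 1 had 86291 of 5358860. miR-542-3p (0.90) and miR-351 (0.77) had overlapping groups, and miR-96 (0.81) and the rare miR-2137* (1.49, at 7.31 to 42.5 CPM) did not.

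Among those lower in late culture that missed the threshold, 3 came from let-7 hairpins. let-7f-1* had 218, 247 and 231 CPM in early libraries and 138, 142, 110.3 and 99.7 CPM in late ones (log2 -0.92 ± 0.22, adjusted p = 0.0808). miR-98* had 94.3 to 160 CPM against 27.1 to 61.4 CPM (log2 -1.36 ± 0.32, adjusted p = 0.0808). let-7b* had 429 to 820.5 CPM against 274 to 361 CPM (log2 -0.87 ± 0.22, adjusted p = 0.0868). miR-380-5p, also of the Dlk1-Dio3 region, and miR-483, from an intron of the growth factor gene Igf2, had log2 values of -1.96 and -1.46 (adjusted p = 0.0808 each). miR-380-5p rested on 16 to 27 tags in early and 2 to 6 tags in late libraries. miR-23b* had overlapping groups (log2 -0.95).

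The most abundant miRNAs differed by less than these. miR-145, abundant in cardiovascular muscle, led every library, with 111570 to 141360 CPM in early and 133140 to 140190 CPM in late culture (log2 0.15 ± 0.13, adjusted p = 0.547). miR-24-1 (0.16), miR-1-1 (0.18), miR-30d (0.17) and miR-99a (0.18) also overlapped between groups and had adjusted p values from 0.520 to 0.628. The remaining 5 of the 10 most abundant, miR-301a, miR-29a, miR-125b-1, miR-30b and miR-133a-1, had log2 values from 0.33 to 0.48 and adjusted p from 0.164 to 0.412. Scaling by library totals instead of TMM moved the median of all 512 miRNAs to -0.18 and turned miR-145, miR-24-1, miR-1-1, miR-30d and miR-99a to values between -0.04 and 0.

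Of the 10 tested members of the muscle list, 0 passed the test in either direction, with 6 higher and 4 lower and a median of 0.20 (0.00 over all 512). On the TMM scale, the member with separate groups beside miR-208a-5p was miR-133a-1. It had 17752, 16682 and 20163 CPM in early and 28493, 23628, 31672 and 20302 CPM in late libraries (log2 0.45 ± 0.17, adjusted p = 0.207). As plain shares of the tags tested, both miRNAs overlapped between groups. For miR-133a-1, day 2 had 114239 of 5034550 tags, and day 4 of time course 2 had 128063 of 6850570. miR-133b had 8577 ± 701 CPM (SD, n = 3) and 10304 ± 1806 CPM (SD, n = 4). miR-206, better known from skeletal muscle, had 983 ± 78.3 CPM and 1087 ± 365 CPM. The 3′ strand of miR-208a, miR-208a-3p, had 161 ± 79.2 CPM and 257 ± 134 CPM. miR-208b, from the gene of the β-myosin heavy chain, and miR-499, from Myh7b, were near the limit of detection at 1.81 to 4.79 CPM and 2.70 to 10.5 CPM. The other strands miR-1-1* and miR-133a-1* had log2 values of -0.29 and 0.00.

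The let-7 family rises as cells differentiate and represses growth genes. In 17 of its 18 tested strands the TMM-scaled level was lower in late culture, and 0 passed the test. These levels are relative to the other miRNAs. In the paper, qPCR against small nucleolar RNAs found a rise from day 1 to day 4 in a set of miRNAs that included let-7a. The 9 major strands had a median log2 of -0.30, with overlapping groups in all 9, and the 9 other strands a median of -0.80 (0.03 and -0.05 over all tested major and minor strands). For 6 of these 9 minor strands the late libraries lay below the early ones, against 21 of 189 tested minor strands (11.1%), while 7 of the 189 (3.7%) lay above. The 6 were let-7a-1*, let-7b*, let-7c-1*, let-7e*, let-7f-1* and miR-98*. These 6 are not independent counts. The minor strands of Mirlet7a-1 and Mirlet7c-2 have the same sequence, and their tags, divided between let-7a-1* and let-7c-1*, made up 88.4% of the former and 86.2% of the latter. Tags placed without a mismatch on Mirlet7f-1 made up 56.5% of let-7f-1* and those on Mirlet7f-2 33.7%. The level of the former was 142 ± 28.2 CPM in early and 61.3 ± 7.79 CPM in late libraries, and that of the latter 73.2 ± 16.2 CPM and 44.8 ± 10.1 CPM, with no overlap for either copy. let-7d*, let-7g* and let-7i* had log2 values of -0.15, -0.20 and 0.03. Under library totals all 18 were lower and 3 minor strands passed the test. In the fit without the block, the median of the major strands was -0.10 with 4 higher and 5 lower, and that of the minor strands -0.87.

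Several other families had mostly higher levels in late culture, with 0 members past the threshold. All 5 major strands of the miR-30 family were higher (median 0.41), as were the 3 of the miR-148 family (0.66), the 3 of the miR-182 and miR-183 cluster (0.60) and the 3 of miR-29 (0.32), a family that represses collagen genes. In the X-linked miR-322 cluster, which restrains the cell cycle, 5 of 6 major strands were higher (median 0.60). By contrast, in the miR-17-92 cluster with its paralogues, known for promoting growth, 10 of 12 major strands were lower (median -0.26). miR-92a-1 (log2 -0.71) and miR-20b (-0.84) lay below all early libraries, and miR-25 above them. Under library totals the medians were 0.22 for miR-30 with 1 of 5 turned lower, 0.45 for miR-148, 0.40 for both miR-182 and miR-322, 0.13 for miR-29 with 1 of 3 turned lower, and -0.44 for miR-17-92. In the Dlk1-Dio3 region 12 miRNAs from 44 hairpins could be tested, 1 fell (miR-337-5p, against 0.781% of all miRNAs tested), and 6 were higher and 6 lower. All 44 hairpins together made up 0.00679% to 0.00942% of early and 0.00271% to 0.00571% of late tags. These ranges did not overlap, and the difference was not tested.

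**Figure D3:**
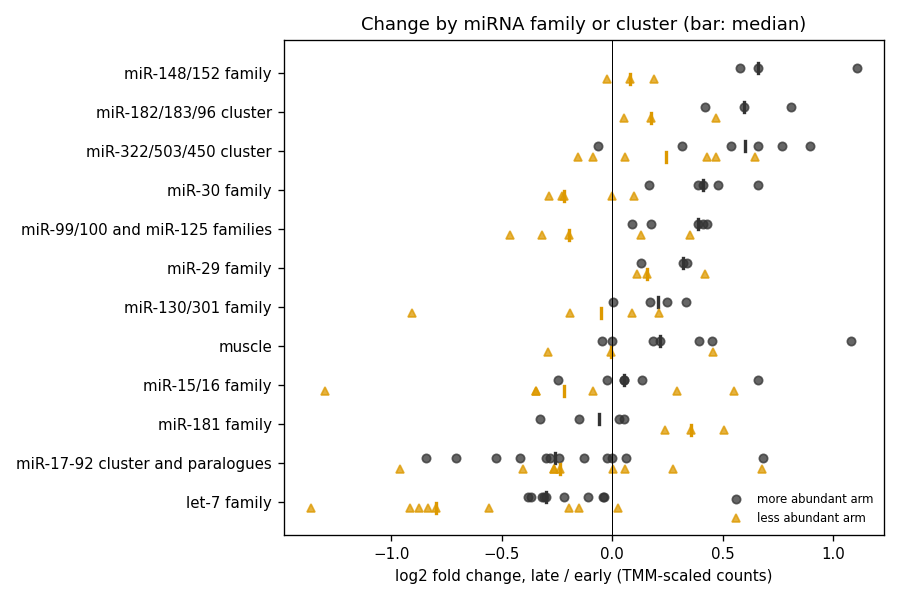
Log2 fold change of late over early culture in TMM-scaled counts (x) for the tested miRNAs of 12 families or clusters (rows). Circles are the more abundant strand of each hairpin, triangles the less abundant one, and bars the medians. The minor strands of let-7 have a median of -0.80, and the major strands of the miR-148 family one of 0.66.

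Strand use was read as the share of a hairpin's tags that came from its 5′ arm, compared on the log2 odds scale with limma for 162 hairpins with a mean of at least 100 tags. The share rose for 2 hairpins (1.23%) and fell for 1 (0.617%), and the groups did not overlap for 14 higher (8.64%) and 8 lower (4.94%). At an unadjusted p under 0.05 there were 34.

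For mir-211 the 5′ arm made up 0.402% and 0.270% of tags at day 1 and 0.726% at day 2. It made up 1.64% and 1.36% at day 3 and 2.41% and 1.37% at day 4 (1.92 ± 0.38 log2 odds, limma adjusted p = 0.0425). The labels of the strands are reversed here, since miR-211 is annotated as the mature strand but had 13 to 29 tags in every library, whereas miR-211* had 3280 to 6643 in early and 942 to 1299 in late libraries. The count of the rare 5′ strand thus stayed in 1 range while the abundant 3′ strand was lower.

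For mir-3470b the 5′ share was 4.70%, 0.624% and 1.98% in early and 11.2%, 10.7%, 10.9% and 8.20% in late libraries (2.44 ± 0.50 log2 odds, adjusted p = 0.0425). The 5′ strand had 14 to 67 tags a library. For mir-23b the 5′ arm, miR-23b*, fell from 0.300% ± 0.0437 (SD, n = 3) to 0.128% ± 0.0338 (SD, n = 4) (-1.32 ± 0.28 log2 odds, adjusted p = 0.0425). The hairpin had at least 67817 tags in every library, but miR-23b* itself had only 194 to 379 in early and 85 to 144 in late ones. miR-23b is one of a cluster with miR-27b and miR-24-1.

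The next hairpins did not pass. The 5′ share of mir-7a-1, a hairpin in an intron of Hnrnpk with copies elsewhere, was 74.3% ± 9.82 in early and 54.5% ± 9.84 in late libraries, with the day 4 library of time course 1 (68.8%) above the lowest early one (adjusted p = 0.0525). That of mir-16-1, counted with its copy Mir16-2, was 84.4% ± 5.97 and 94.0% ± 3.47 (adjusted p = 0.113). Of the 162 hairpins, the less abundant arm had a smaller share in late culture in 97 and a larger one in 65. Without a library, 0 or 1 of the hairpins was called, and with the quasi-binomial model or without the block 0 were called (37 and 18 at an unadjusted p under 0.05).

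**Figure D4:**
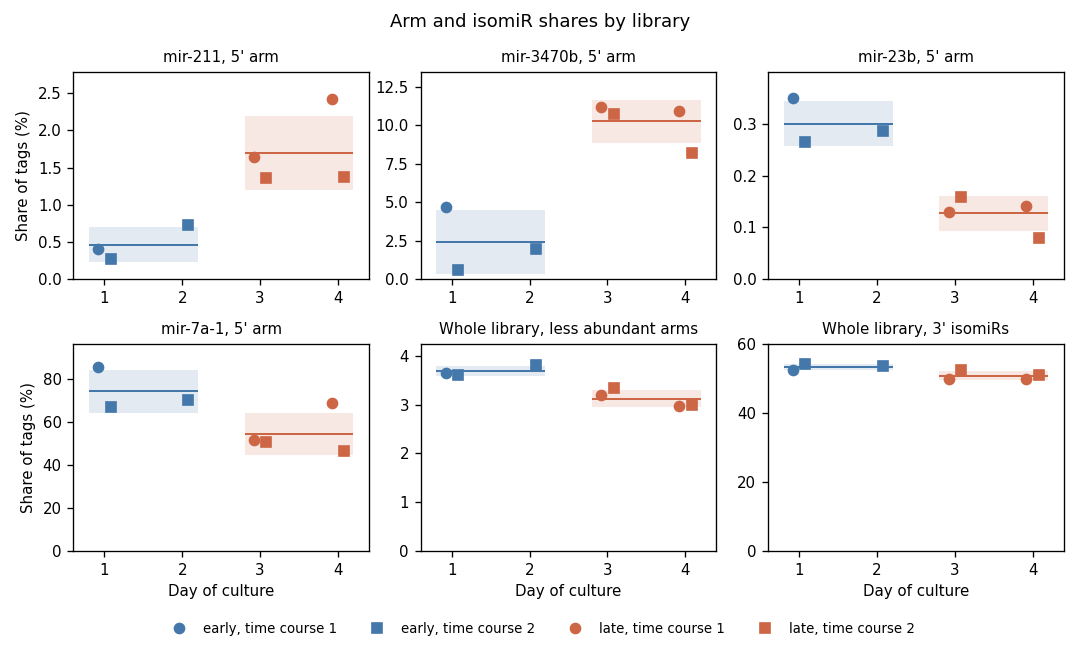
Share of tags in percent (y) by day of culture (x). The first 4 panels give the 5′ arm of 4 hairpins, and the last 2 the less abundant arms and the 3′ isomiRs among all tags of a library. Points are libraries (circles, time course 1; squares, time course 2), lines are group means and bands 1 SD, with n = 3 early and n = 4 late libraries, and late points overlap early ones for mir-7a-1 and for the 3′ isomiRs of the whole library.

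5′ isomiRs, tags that start elsewhere than the reference start, were tested for 239 miRNAs with the same model. limma called 0 higher (0.0%) and 0 lower (0.0%), and 30 had an unadjusted p under 0.05 (27 with the quasi-binomial model, which called 0 as well). The groups did not overlap for 8 higher (3.35%) and 17 lower (7.11%). The log2 odds were lower in late culture for 156 of 239, with a median of -0.08.

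The smallest p belonged to miR-25, whose 5′ isomiRs made up 0.565%, 0.709% and 0.977% of tags in early and 0.365%, 0.369%, 0.314% and 0.429% in late libraries (-0.94 ± 0.15 log2 odds, adjusted p = 0.0638). Next came miR-93, miR-19b-1 and miR-18a, other members of the miR-17-92 list, and miR-365-1 (adjusted p = 0.149 each). Their shares were 0.421% ± 0.0495 and 0.275% ± 0.0393 for miR-93, and 1.04% ± 0.109 and 0.740% ± 0.1096 for miR-19b-1. For miR-18a they were 3.01% ± 0.911 and 1.77% ± 0.174. miR-365-1 differed in direction, with 0.973% ± 0.402 in early and 2.40% ± 0.509 in late libraries at a depth of 356 tags in its shallowest library. Early and late libraries did not overlap for any of these 5.

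3′ isomiRs, tags that end elsewhere than the reference end, were far more frequent. They made up 53.5% ± 0.864 of all tags in early (SD, n = 3) and 50.9% ± 1.26 in late libraries (SD, n = 4). Of 290 miRNAs tested, limma called 0 higher (0.0%) and 0 lower (0.0%), 38 had an unadjusted p under 0.05 (31 lower and 7 higher), and the quasi-binomial model called 0 with 42. The groups did not overlap for 7 higher (2.41%) and 38 lower (13.1%). The log2 odds were lower in 173 and higher in 117, with a median of -0.08.

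miR-208a-5p had the smallest p. Its 3′ isomiR share was 53.01%, 56.4% and 50.7% in early libraries and 35.3%, 41.0%, 38.5% and 32.3% in late ones (-0.98 ± 0.17 log2 odds, adjusted p = 0.0824). The lowest early value was above the highest late one. The tag with the reference end went from 44.0% ± 3.19 of the miRNA to 59.8% ± 5.39, the tag 2 bases shorter from 22.4% ± 1.89 to 12.6% ± 0.947, and the tag 1 base shorter from 15.8% ± 2.06 to 12.7% ± 2.02. Counting only tags that end short of the reference, a choice made after these values were seen, the share fell from 47.7% to 29.9% (-1.10 ± 0.20 log2 odds, limma adjusted p = 0.0340), the only call among 281 miRNAs in that fit, while longer tags were 5.70% and 6.85%.

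miR-24-1* holds the 5′ strands of both Mir24 hairpins, and 89.3% of its tags lay on Mir24-2 (chr8:84208815-84208921, plus strand, GRCm38) and 6.59% on Mir24-1. The pattern of its ends is shown by the Mir24-2 tag with the reference end and the tag 1 base shorter.
Mir24-2 5′ strand, reference end: gTGCCTACtgagctgaaacagt
Mir24-2 5′ strand, 1 base shorter: gTGCCTACtgagctgaaacag

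As shares of miR-24-1*, the shorter of these went from 36.3% ± 4.56 to 23.1% ± 2.03 and the other from 39.9% ± 5.70 to 56.2% ± 2.79. The whole 3′ isomiR share of miR-24-1* was 54.3%, 60.6% and 51.1% in early and 38.9%, 42.2%, 39.6% and 35.4% in late libraries (adjusted p = 0.0824). For the tags of Mir24-2 alone it was 48.8% to 60.5% in early and 32.6% to 40.4% in late libraries.

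For the muscle miRNA miR-133a-1 the share was 54.4%, 50.1% and 43.7% in early and 39.9%, 38.9%, 37.7% and 36.5% in late libraries (-0.69 ± 0.13 log2 odds, adjusted p = 0.0824). Its reference positions here are its own most frequent start and end, because the RefSeq table used gave none. For miR-23b the share was 68.75% ± 2.01 and 59.97% ± 2.01 (-0.54 ± 0.11 log2 odds, adjusted p = 0.0824), and for miR-29a 22.6% ± 0.493 and 17.4% ± 1.64 (-0.49 ± 0.11 log2 odds, adjusted p = 0.107).

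Outside these 5, named here after their values were seen, miR-25 had 54.6% ± 4.70 and 36.2% ± 7.21 (adjusted p = 0.107). Its late spread came mainly from day 3 of time course 2 at 46.9%, since the other late libraries had 31.5% to 33.3%. The ends of miR-25 are shown because tags on both sides of the reference end had smaller shares in late culture.
miR-25, 1 base shorter: cATTGCACttgtctcggtctg
miR-25, reference end: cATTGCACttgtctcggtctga
miR-25, 1 base longer: cATTGCACttgtctcggtctgac

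The shorter tag had 19.7% ± 3.12 of miR-25 in early and 13.2% ± 1.88 in late libraries, the reference tag 42.0% ± 3.56 and 58.3% ± 8.71, and the longer tag 13.7% ± 2.50 and 8.59% ± 2.64. miR-26b went the opposite way, with 62.7% ± 1.82 and 71.5% ± 2.71 (0.56 ± 0.15 log2 odds, adjusted p = 0.134). Its tags past the reference end were 50.8% and 60.6%, and those short of it 11.9% and 10.9%.

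**Figure D5:**
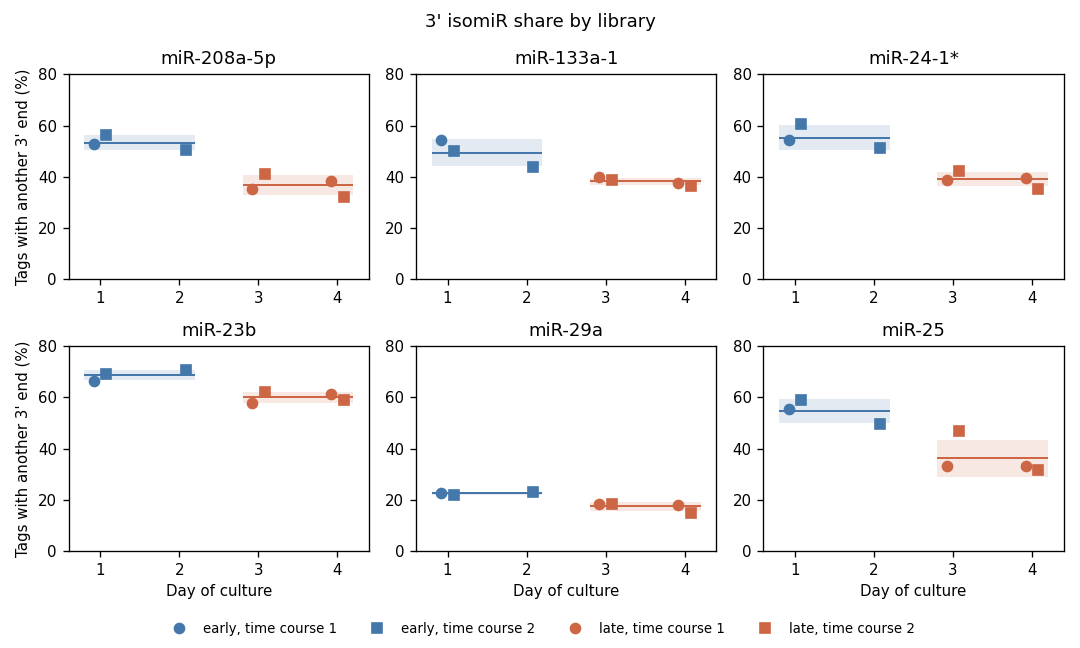
Share of tags with a 3′ end other than the reference end, in percent (y), by day of culture (x) for 6 miRNAs. Points are libraries (circles, time course 1; squares, time course 2), lines are group means and bands 1 SD, with n = 3 early and n = 4 late libraries, and in each of the 6 panels all late points lie below all early points, although 0 of these shares passed the adjusted threshold.

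Among the 38 miRNAs whose late libraries all had a lower 3′ isomiR share, longer tags were less frequent in 33 and shorter tags in 34, counts that the choice of these miRNAs by the sum of both largely fixes. Among the 245 with overlapping groups, longer tags were less frequent in 137 and more frequent in 106, and shorter tags in 124 and 111. Of the 38, 21 lay on the 5′ arm (15.2% of those tested there) and 17 on the 3′ arm (11.2%). Of the 97 most abundant miRNAs tested 22 were among them, against 11 of the 96 of middle level and 5 of the 97 of lowest level, where sampling error is larger. Across the 290 miRNAs the difference in 3′ isomiR share and the change in level had a Pearson r of -0.31 and a Spearman rho of -0.21, both from the same 7 libraries, and miRNAs are not independent replicates. The set of 3′ isomiR shares was sensitive to 2 libraries of time course 2. Without day 2 there were 5 calls and without day 3 there were 2, all lower.

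Over whole libraries the less abundant arms made up 3.65%, 3.61% and 3.81% of early and 3.19%, 3.34%, 2.97% and 2.98% of late tags, with no overlap. With 3 against 4 libraries the exact two-sided permutation test cannot give a p below 0.0571, which is the value for this share (adjusted over 9 shares 0.514), and within time courses it cannot go below 0.111. For 3′ isomiRs the p was 0.114, and 0.111 within time courses. The share of the 20 leading miRNAs was 65.6% ± 1.54 and 67.5% ± 1.82 (exact permutation p = 0.229, and 0.111 within time courses). Early and late libraries overlapped for both of these shares. For the 5′ arm, 5′ isomiRs, longer ends, shorter ends, tags over 24 nt and mismatched last bases the exact permutation p ranged from 0.400 to 0.914. These p values rank the difference of means among relabelings of the libraries, which came from 2 time courses. Those not kept within time courses treat all libraries as interchangeable, although libraries of 1 time course had correlated deviations.

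The 2 time courses were compared by an interaction term. In time course 1 the early group was 1 library, and the fit had 3 residual degrees of freedom. The test could thus miss real differences, and an absence of calls does not mean that the time courses agree. edgeR called 0 of 512 miRNAs with a late against early change that differed between them, and 32 had an unadjusted p under 0.05. DESeq2's Wald test called 1.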

How the data were processed

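The authors enriched small RNA by size, prepared SOLiD libraries, mapped tags to miRBase hairpins and the mouse genome, and deposited for each library its distinct hairpin tags with raw counts, with no normalization. Hairpins and mature positions were taken here from GENCODE and RefSeq tables of GRCm38, and 553 of 572 hairpins listed by the study were matched. Each tag was placed with at most 2 mismatches (0.343% were not placed), and a tag on several miRNAs was divided among them (2.00% of tags). Copies of a hairpin were counted together under the first number, also where their minor strands differ in sequence. Tags starting within 3 nt of the reference start were summed per miRNA arm. For 281 arms without a RefSeq position the most frequent start and end served as reference, which can move their isomiR shares. Lines without a sequence (101) were left out.

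Levels were tested with edgeR 4.0.16 (TMM, filterByExpr, quasi-likelihood; DESeq2 1.42.0 as an alternative) and shares with limma 3.58.1 on log2 odds (pseudocount 0.5, mean of at least 100 tags, of which 10 of the rarer outcome), with Benjamini-Hochberg adjustment, R 4.3.3 and Python with scipy for exact permutation tests. Samples with the same replicate number come from 1 time course, and their deviations correlated (r = 0.52, 0.50 and 0.42 between days), so the time course was a block. Scripts were tested on simulated data. Depth limits rare strands. Named miRNAs were up to 10 with the smallest p in each direction, the 10 most abundant, and the muscle list, and for shares the 5 with the smallest p. Members, lists and tests were chosen with earlier results of these data known.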

Additional observations from a re-analysis of the deposited data

Results flagged for a closer look

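In 86 groups of 4 late libraries (the levels and shares named, including those named after their values were seen, and the whole-library shares), 1 library stood apart from the others in 4 cases, measured as its gap to the nearest library over the range of the group, against Dixon's 95% critical value. Chance alone gives about 1 such case in 20 groups. The 5′ isomiR shares of miR-133a-1 and miR-328 were not among the 86 groups. For the 5′ arm share of mir-3470b the ratio was 0.846, since day 4 of time course 2 had 8.20% and the other late libraries 10.7% to 11.2%. For the 3′ isomiR share of miR-29a it was 0.947, since day 4 of time course 2 had 14.95% and the others 18.1% to 18.3%. For the 3′ isomiR share of miR-25 it was 0.885, since day 3 of time course 2 had 46.9% and the others 31.5% to 33.3%. For the miR-25 tag 1 base shorter than the reference it was 0.856, since the same library had 15.99% and the others 12.01% to 12.6%.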

How the results depend on the processing

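The number of miRNAs called in level (5) was 3 without the replicate block (62 at an unadjusted p under 0.05), 14 with library totals, 29 with DESeq2's Wald test, 13 with no filter on low counts, 28 with day as a number and 41 for day 4 against day 1. Leaving out 1 library gave 0 to 11. DESeq2's Wald test called 1 difference between time courses. Calls of arm share (3) were 0 without the replicate block, with a mean of at least 50 tags and with the quasi-binomial model (18, 33 and 37 at an unadjusted p under 0.05), and 0 to 1 without 1 library. The 5′ isomiR share gave 1 call with pseudocount 5 and 1 with a mean of at least 500 tags. The 3′ isomiR share gave 1 with shorter ends only, and 0 to 5 without 1 library. The cause of these differences was not tested.

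Library totals turned miR-145, miR-24-1, miR-1-1, miR-30d and miR-99a to -0.031, -0.038, -0.0020, -0.021 and -0.0082 (log2). miR-499 was 0.0014 with day as a number and 0.11 for day 4 against day 1. miR-133a-1* was 0.040 without the replicate block and 0.013 with no filter. miR-206 was 0.15 without the block, 1.5e-05 with DESeq2, 0.022 with no filter, 0.11 without mismatched tags and 0.054 with tags of a single miRNA. Without 1 library miR-24-1 ranged from -0.048 to 0.29, miR-208b from -0.055 to 0.76, miR-499 from -0.41 to 0.45, miR-133a-1* from -0.073 to 0.050 and miR-206 from -0.30 to 0.15. Tags past the reference end were at 0.29 log2 odds for miR-208a-5p and 0.081 for miR-133a-1. Over whole libraries, 5′ isomiRs differed by -0.258 percentage points with equal weight for each miRNA, and tags over 24 nt by 0.0934 with the replicate block. Without 1 library these shares ranged from -0.0336 to 0.202 (5′ isomiRs), -1.85 to 0.105 (shorter ends), -0.820 to 0.425 (over 24 nt) and -0.000245 to 0.00296 (mismatched last base). The 5 called levels and 3 called arm shares kept their direction in every alternative run. Depth limits strands with few tags, such as miR-211 with 13 to 29.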

Other observations

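Several hairpins outside the named ones had groups that did not overlap in strand use. The 5′ arm of mir-28, whose strands are known to have different targets, made up 55.0% to 63.8% of tags in early and 71.5% to 90.5% in late libraries (1.31 ± 0.43 log2 odds, limma adjusted p = 0.185). The 5′ strand miR-25* had 2.58% ± 0.938 of mir-25 tags in early and 1.24% ± 0.0337 in late libraries (adjusted p = 0.136), and miR-148a* had 3.45% ± 0.886 and 1.61% ± 0.539 of mir-148a tags (adjusted p = 0.136). miR-497* was a minor strand with a shifted start, and its 5′ isomiR share was 42.0% at day 1 of time course 1, 76.5% and 76.6% in the other early libraries, and 81.0% to 86.2% in late ones (adjusted p = 0.214).

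miR-3107 and miR-486 share their tags, and both had lower 3′ isomiR shares in all late libraries (70.5% and 60.1% for miR-3107, 71.4% and 61.1% for miR-486, adjusted p = 0.107 and 0.1096). Over the 512 miRNAs the log2 fold change had a Pearson r of -0.09 with the GC content of the leading tag and 0.15 with the log2 level, with no p since miRNAs share libraries.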
